A study of Mus musculus with 9 samples.

Results

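The 33 genes described here encode the transporters and enzymes that carry glucose to pyruvate and lactate, the carriers that export lactate, the oxygen-regulated factor Hif1a with its prolyl hydroxylases, and 4 genes that are textbook targets of low oxygen. They were picked by symbol, with earlier results of these data known, and all are described whatever their values. They are 33 of the 54532 genes in the deposited table. Levels are in FPKM, fragments scaled to the length of a gene's exons and to a total for each library, so that levels of different genes can be set side by side. RNA of mouse myeloid cells was sequenced as paired-end reads in 9 libraries, 3 in each of the groups KO, Gr_1 and fl. The libraries labelled KO came from mice with the genotype SOCS3 KO, and the Gr_1 and fl libraries from mice labelled Wild type. All 3 groups share the strain C57BL/6, an age of 6 to 8 weeks, the cell type Myeloid cells and the source white cells. The labels do not say what Gr_1 and fl stand for, in which cells or by which Cre the gene was deleted, how the cells were sorted, or whether each library came from an animal of its own. The p-values below therefore measure only the spread between these libraries, which may be technical.

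Glycolysis splits glucose into pyruvate in the cytosol and yields ATP without oxygen. Neutrophils, which hold few mitochondria, are known to depend on it and to turn much of their pyruvate into lactate, which leaves the cell through monocarboxylate carriers. When oxygen is low, the prolyl hydroxylases encoded by the Egln genes no longer mark Hif1a for degradation, and Hif1a with its partner Arnt binds DNA at the core ACGTG or GCGTG near many genes of this pathway.

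The 9 libraries held between 18.3 and 21.5 M fragments, and 3 fragments of a gene with 1 kilobase of exon correspond to 0.136 to 0.187 FPKM. The targeted gene Socs3 stood at 8.12 ± 1.25 FPKM in KO, against 35.5 ± 2.21 FPKM in Gr_1 and 3.76 ± 0.318 FPKM in fl (mean ± SD, n = 3 each). Every KO library was below every Gr_1 library and above every fl library, so each direction given for KO rests on the label. KO B held Xist RNA, which marks an inactive X chromosome, and no fragment of 4 Y-linked genes. KO A carried the Y-linked genes, as did the Gr_1 and fl libraries, and KO C carried both signals. Xist was at 58.5 FPKM in KO B, 26.3 FPKM in KO C and at most 0.0104 FPKM in every other library. The sex signal thus differed among the KO libraries and between KO and the other groups. Its part in the KO comparisons was not tested. KO C lay between KO A and KO B for 22 of the 33 genes (66.7%) and for 61.5% of all genes tested. The largest such share in the other groups was 60.6% of the 33 genes (Gr_1 B) and 44.4% of all genes tested (fl B), so KO C stood apart over all genes and little over the 33. Whether KO C shares RNA with KO A and KO B was not tested. Without it 4.71% of all genes were called between KO and fl and 46.3% between KO and Gr_1, and the log2 changes of the 32 genes tested moved in KO by 0.01 at the median and by at most 0.18 (Gapdh). KO calls that it decides are named beside their values. All 18 late neutrophil markers were tested, and 12 were higher in KO than in fl (9 without KO C) and 17 higher in Gr_1 than in fl. Their summed level was 70585 to 101623 FPKM in KO, 172463 to 175455 FPKM in Gr_1 and 64452 to 71752 FPKM in fl. Of 13 monocyte markers, 10 were lower in KO than in fl (8 without KO C) and 12 lower in Gr_1 than in fl, with sums of 1325 to 1615 FPKM in KO, 1043 to 1165 FPKM in Gr_1 and 2843 to 2908 FPKM in fl. All 9 B cell markers were higher in Gr_1 than in fl, at summed levels of 301 to 325 FPKM in Gr_1 and 64.6 to 83.4 FPKM in fl, and 7 of 10 cell cycle genes were lower in Gr_1 than in fl. Of 9 early granulocyte markers, 7 were lower in Gr_1 than in fl, at summed levels of 4281 to 4932 FPKM in Gr_1 and 7820 to 10006 FPKM in fl. Of 12 T cell markers 6 were tested, and all 6 were higher in KO than in fl. The 12 summed to 21.2 to 32.1 FPKM in KO and 4.86 to 7.58 FPKM in fl. Testing needed 1 FPKM in 3 libraries, which a gene can reach through KO alone. Trac averaged 2.27 FPKM in KO, 0.446 FPKM in Gr_1 and 0.401 FPKM in fl, so part of this count can follow from the filter. In KO, 6 of 9 markers of basophils, mast cells and eosinophils (4715 to 9437 FPKM in KO and 4106 to 8777 FPKM in fl) were higher than in fl. Without KO C, 4 of the 5 T cell markers then tested and 2 of the 9 of basophils, mast cells and eosinophils were. Prg2 made up most of the sum of those 9 markers, at means of 6252 FPKM in KO and 5333 FPKM in fl. Of 12 erythroid and platelet markers, 3 were higher in KO than in fl, calls lost without KO C, and 10 higher in Gr_1 than in fl, with sums of 123 to 125 FPKM in KO, 146 to 232 FPKM in Gr_1 and 52.4 to 79.2 FPKM in fl. Of 8 macrophage markers tested, 4 were lower in KO than in fl (1 without KO C), and 5 were higher and 3 lower in Gr_1 than in fl. Of 9 NK cell markers 7 were tested, with 4 higher in KO than in fl (1 without KO C) and 4 lower in Gr_1 than in fl. The 9 summed to 135 to 262 FPKM in KO, 16.2 to 23.2 FPKM in Gr_1 and 141 to 204 FPKM in fl. The filter can act here too, as Ncr1 averaged 3.17 FPKM in KO, 0.268 FPKM in Gr_1 and 0.743 FPKM in fl. Nkg7 made up most of the NK cell sum, at means of 169 FPKM in KO, 16.5 FPKM in Gr_1 and 158 FPKM in fl. None of these markers was at 0 in every library. The part of these cell type differences in the results below was not tested. In such bulk RNA, more cells of a type and more RNA per cell cannot be told apart.

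The widest split among the 33 genes ran between the Gr_1 libraries and the other 2 groups. The glucose transporters Slc2a3, Slc2a6 and Slc2a1, the hexokinase Hk3, the regulator Pfkfb4, the lactate dehydrogenase subunit Ldha and the lactate exporter Slc16a3 were higher in Gr_1 than in fl however the columns were scaled. Ldhb, Car9, P4ha1, Tpi1 and Egln1 were lower. In the libraries labelled KO, 1 gene stood clearly apart from fl, the glucose transporter Slc2a3. By mean level on the deposited scale, near-ties included, 17 of the 33 genes stood in the order Gr_1, KO, fl from high to low. The order fl, KO, Gr_1 held for 6. How many of all genes stood in these orders was not counted. With columns scaled to equal sums, 13 of the 32 changes between KO and Gr_1 took the other sign. The 32 genes tested (limma on log2(FPKM + 1), p-values adjusted by the Benjamini-Hochberg method over 12289 genes, called under 0.05) gave 2 genes higher and 1 lower in KO than in fl, where 11% of all genes were called (4.48% higher and 6.52% lower). Between Gr_1 and fl, 18 were higher and 5 lower, where 61.4% of all genes were called (30% higher and 31.4% lower). Between KO and Gr_1, 4 were higher and 13 lower in KO, where 55.7% of all genes were called (26.7% higher and 28.9% lower). The total shares called among the 32 genes were thus near those over all genes for both KO comparisons. For Gr_1 against fl the total share was somewhat above, and the calls were mostly higher. Between KO and Gr_1 the calls were mostly lower in KO, while over all genes the 2 directions were nearly even. The median log2 change of the 32 genes was 0.07 between KO and fl, 0.25 between Gr_1 and fl and -0.18 between KO and Gr_1, against -0.01, -0.03 and 0.01 over all genes.

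**Figure D1:**
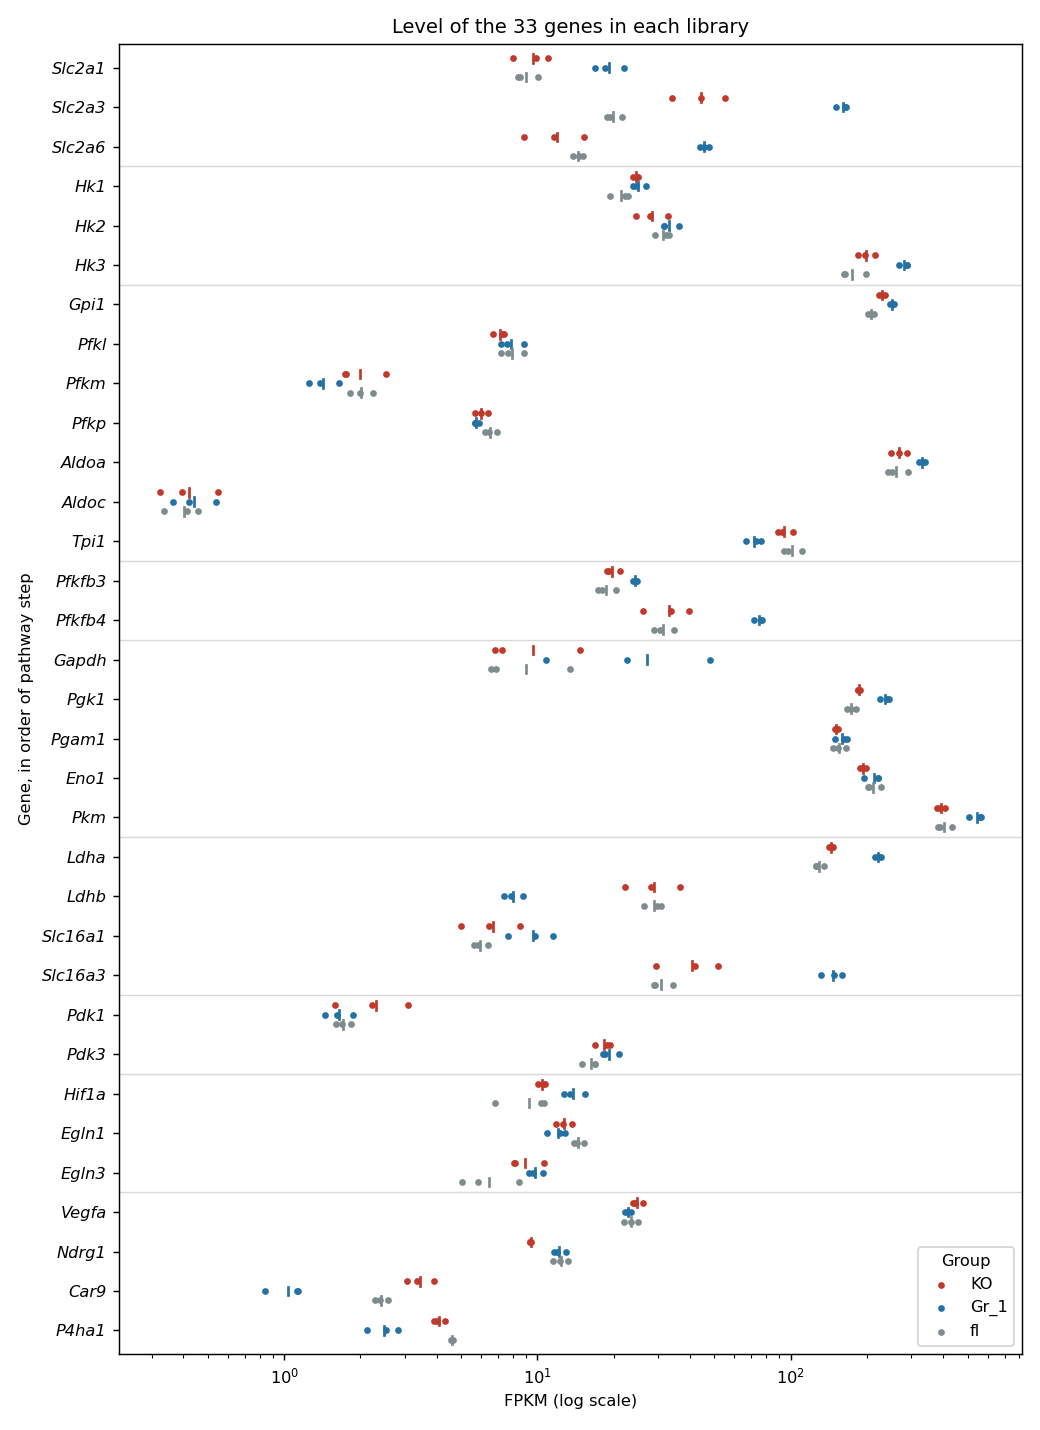
Level of each of the 33 genes in each library, in FPKM on a log axis, with genes in the order of the pathway. Points are libraries, vertical ticks are group means (n = 3). Slc2a3 lies at 33.9 to 54.9 FPKM in KO, 152 to 166 FPKM in Gr_1 and 18.8 to 21.6 FPKM in fl, and the Gapdh points are the most widely spread within each group.

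The deposited columns do not have equal sums, and this bears on every direction for Gr_1. The FPKM of all genes summed to 343079 to 370711 in KO, 475393 to 486796 in Gr_1 and 350229 to 386695 in fl. FPKM turned into whole fragments with totals of 16.0, 18.2 and 16.0 M in Gr_1. Those totals were under the 19.0, 21.5 and 18.6 M fragments recovered there. In KO they were 19.9, 21.7 and 21.7 M, above the 19.0, 19.65 and 20.1 M recovered. In fl they were 22.0, 20.8 and 18.5 M, above the 20.8, 19.5 and 18.3 M recovered. The sources used here do not say how these totals were set. With columns scaled to equal sums, the median gene moved to a log2 change of -0.36 for Gr_1 against fl, 7 of the 32 genes were higher and 13 lower in Gr_1, and of all genes 16.1% were called higher and 53.9% lower. With equal sums over all genes but the 10 most abundant, 14 were higher and 8 lower in Gr_1 (24% and 38.8% of all genes), and with quantile normalization 15 and 6 (27.3% and 35.3%). Relative to the median gene, 23 of the 32 genes were above it on the deposited scale and 20 with equal sums. The genes called higher in Gr_1 than in fl on the deposited scale and on all 3 other scalings were Slc2a1, Slc2a3, Slc2a6, Hk3, Pfkfb4, Ldha and Slc16a3, and all 5 genes called lower kept their call. For KO against fl the median gene lay at a log2 change of 0.01 with equal sums and 0.05 with the 10 most abundant genes left out. The 32 genes then gave 4 calls with equal sums, where 11.5% of all genes were called, 6 without the 10 most abundant genes, where 11% were, and 6 with quantile normalization, where 11.6% were. Between KO and Gr_1 the median gene moved to 0.36 with equal sums, and 15 of the 32 genes were higher and 6 lower in KO, where 54.2% and 13.4% of all genes were.

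Promoter sequences are shown for 7 genes: 4 of those that were higher in Gr_1 on every scaling (Slc16a3, Slc2a6, Pfkfb4 and Ldha) and 3 that were lower (Ldhb, Car9 and P4ha1), so that the Hif1a core motif can be read in both sets. Each is the RefSeq window (GRCm38.p6) of 250 bases before the transcription start to 50 bases after it, written 5′ to 3′ on the gene's strand. Capitals mark ACGTG or GCGTG on either strand (CACGT and CACGC where the motif is on the other strand). Where ACGTG on both strands overlaps, the capitals read CACGTG.
Slc16a3 (chr11:120948817-120949116, plus strand): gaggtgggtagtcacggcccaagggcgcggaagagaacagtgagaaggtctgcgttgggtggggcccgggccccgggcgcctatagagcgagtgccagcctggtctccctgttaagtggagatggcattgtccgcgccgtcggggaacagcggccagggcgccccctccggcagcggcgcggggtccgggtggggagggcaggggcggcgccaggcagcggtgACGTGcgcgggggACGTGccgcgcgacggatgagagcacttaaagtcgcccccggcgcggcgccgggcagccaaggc
Slc2a6 (chr2:27027949-27028248, minus strand): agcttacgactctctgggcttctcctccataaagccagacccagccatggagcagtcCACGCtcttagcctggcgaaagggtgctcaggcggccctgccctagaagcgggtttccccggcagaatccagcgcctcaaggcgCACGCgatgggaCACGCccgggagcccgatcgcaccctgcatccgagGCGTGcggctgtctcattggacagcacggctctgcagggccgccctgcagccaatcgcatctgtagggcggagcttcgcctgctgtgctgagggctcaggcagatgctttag
Pfkfb4 (chr9:108991652-108991951, plus strand): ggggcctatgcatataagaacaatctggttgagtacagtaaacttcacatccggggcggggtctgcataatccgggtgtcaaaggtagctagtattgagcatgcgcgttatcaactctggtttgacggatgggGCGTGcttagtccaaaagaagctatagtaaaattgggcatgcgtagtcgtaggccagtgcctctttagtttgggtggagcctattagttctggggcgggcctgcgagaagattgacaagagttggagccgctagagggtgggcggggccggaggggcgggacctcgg
Ldha (chr7:46845554-46845853, plus strand): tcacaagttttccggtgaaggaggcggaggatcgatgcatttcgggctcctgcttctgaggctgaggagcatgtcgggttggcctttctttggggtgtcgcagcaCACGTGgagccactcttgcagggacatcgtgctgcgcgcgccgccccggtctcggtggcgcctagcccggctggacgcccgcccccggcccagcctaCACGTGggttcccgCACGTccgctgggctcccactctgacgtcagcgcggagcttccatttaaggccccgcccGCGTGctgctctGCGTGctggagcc
Ldhb (chr6:142507908-142508207, minus strand): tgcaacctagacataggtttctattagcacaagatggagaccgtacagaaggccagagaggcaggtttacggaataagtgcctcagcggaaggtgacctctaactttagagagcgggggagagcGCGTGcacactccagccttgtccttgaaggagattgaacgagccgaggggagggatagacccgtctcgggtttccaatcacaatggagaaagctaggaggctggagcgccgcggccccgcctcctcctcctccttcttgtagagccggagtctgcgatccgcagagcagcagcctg
Car9 (chr4:43506776-43507075, plus strand): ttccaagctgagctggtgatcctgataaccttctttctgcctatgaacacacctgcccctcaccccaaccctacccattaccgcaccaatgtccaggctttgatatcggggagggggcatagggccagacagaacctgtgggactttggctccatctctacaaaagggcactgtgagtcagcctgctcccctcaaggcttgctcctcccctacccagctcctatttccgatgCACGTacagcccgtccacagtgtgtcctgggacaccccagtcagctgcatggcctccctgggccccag
P4ha1 (chr10:59323046-59323345, plus strand): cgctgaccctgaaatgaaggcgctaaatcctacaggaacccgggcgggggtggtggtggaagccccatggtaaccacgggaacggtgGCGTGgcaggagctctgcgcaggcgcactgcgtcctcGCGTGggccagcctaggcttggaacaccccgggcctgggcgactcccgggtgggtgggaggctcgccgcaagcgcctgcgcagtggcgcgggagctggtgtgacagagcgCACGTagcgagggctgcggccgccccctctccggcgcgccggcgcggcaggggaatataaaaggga
The Ldha window held 7 matches, the highest count among the windows shown, with each CACGTG counted as 2, 1 per strand. A second Ldha window, not shown, held 2. Slc2a6 held 4. P4ha1 held 3 and Slc16a3 held 2, while Pfkfb4, Ldhb and Car9 held 1 each. At least 1 window held a match in 29 of the 31 genes with an entry (93.5%). Over the 8426 tested genes with an entry the share was 67.5%, and over all 27025 genes with an entry 46.7%. A gene with more windows has more chances of a match, and the windows of the tested genes were not counted. By window, 82.2% of the 45 held a match, against 43.8% of all 32851. The 45 windows of the 31 genes held 19.2 CG pairs on average, against 12.4 over all windows, and both motifs contain a CG pair. Genes that were higher and genes that were lower in Gr_1 both had matches, and a match says only that these letters stand in the window. Of the genes called on every scaling but not shown, Slc2a1 and Egln1 held 2 each, Hk3 held 1 and Tpi1 held 0. Slc2a3 had no entry.

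The glucose transporters are described first, since they bring the substrate into the cell. Slc2a3 encodes GLUT3, a high-affinity glucose transporter of neurons and leukocytes, and is a minus-strand gene of chromosome 6, at 122727809 to 122801640 in GRCm38. It had 54.9, 33.9 and 44.4 FPKM in KO, 165, 166 and 152 FPKM in Gr_1, and 21.6, 18.8 and 19.4 FPKM in fl. The 3 groups did not overlap, with every KO library above every fl library and below every Gr_1 library. Its mean in KO was 2.23 times that in fl, a log2 change of 1.09 ± 0.15 (SE, limma adjusted p = 0.00281), higher in 3 of 3 libraries. Without KO C the change was 1.08 (adjusted p = 0.0168), and the call held on all 3 other scalings and in each of 9 fits that left out a library. In Gr_1 the mean was 8.08 times that in fl (log2 change 2.95 ± 0.15, adjusted p = 1.72e-06), the largest rise among the 32 genes, and with equal sums it was 2.90 above the median gene. Within KO the libraries stood in the order A, C, B. KO C was the middle library for most genes, as given above, and the neutrophil antigen Ly6g was among them, at 152 FPKM in KO A, 108 FPKM in KO C and 62.0 FPKM in KO B.

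Slc2a1 encodes GLUT1, the widely expressed basal glucose transporter. It had 10.98, 7.99 and 9.89 FPKM in KO, 18.5, 16.8 and 22.0 FPKM in Gr_1, and 8.39, 8.55 and 10.1 FPKM in fl. KO and fl overlapped (log2 change 0.08 ± 0.13, adjusted p = 0.738), while every Gr_1 library was above both (1.01 ± 0.13 against fl, adjusted p = 2.00e-04). Slc2a6 encodes GLUT6, a transporter of lysosomal membranes that macrophages raise on activation. It had 15.3, 8.85 and 11.7 FPKM in KO, 45.6, 47.4 and 44.0 FPKM in Gr_1, and 13.8, 14.6 and 15.1 FPKM in fl. KO spread widely around the fl values (-0.29 ± 0.15, adjusted p = 0.273), and Gr_1 was above both groups (1.59 ± 0.15 against fl, adjusted p = 3.76e-05).

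Because a share within a library does not depend on how the columns are scaled, the make-up of each enzyme family was also compared. Slc2a3 made up 67.6%, 66.8% and 67.3% of the summed FPKM of the 3 glucose transporters in KO, 72.0%, 72.1% and 69.7% in Gr_1, and 49.3%, 44.8% and 43.5% in fl. The 3 KO libraries, which differed widely in the level of Slc2a3, lay within 1 point of each other in its share and above every fl library. The difference between KO and fl was 21.4 points, and 21.3 points without KO C. With 3 libraries a side, an exact permutation test (two-sided) of such a share cannot give a p under 0.1, and over the 27 shares tested the lowest adjusted p was 0.169, so no share passed 0.05.

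**Figure D2:**
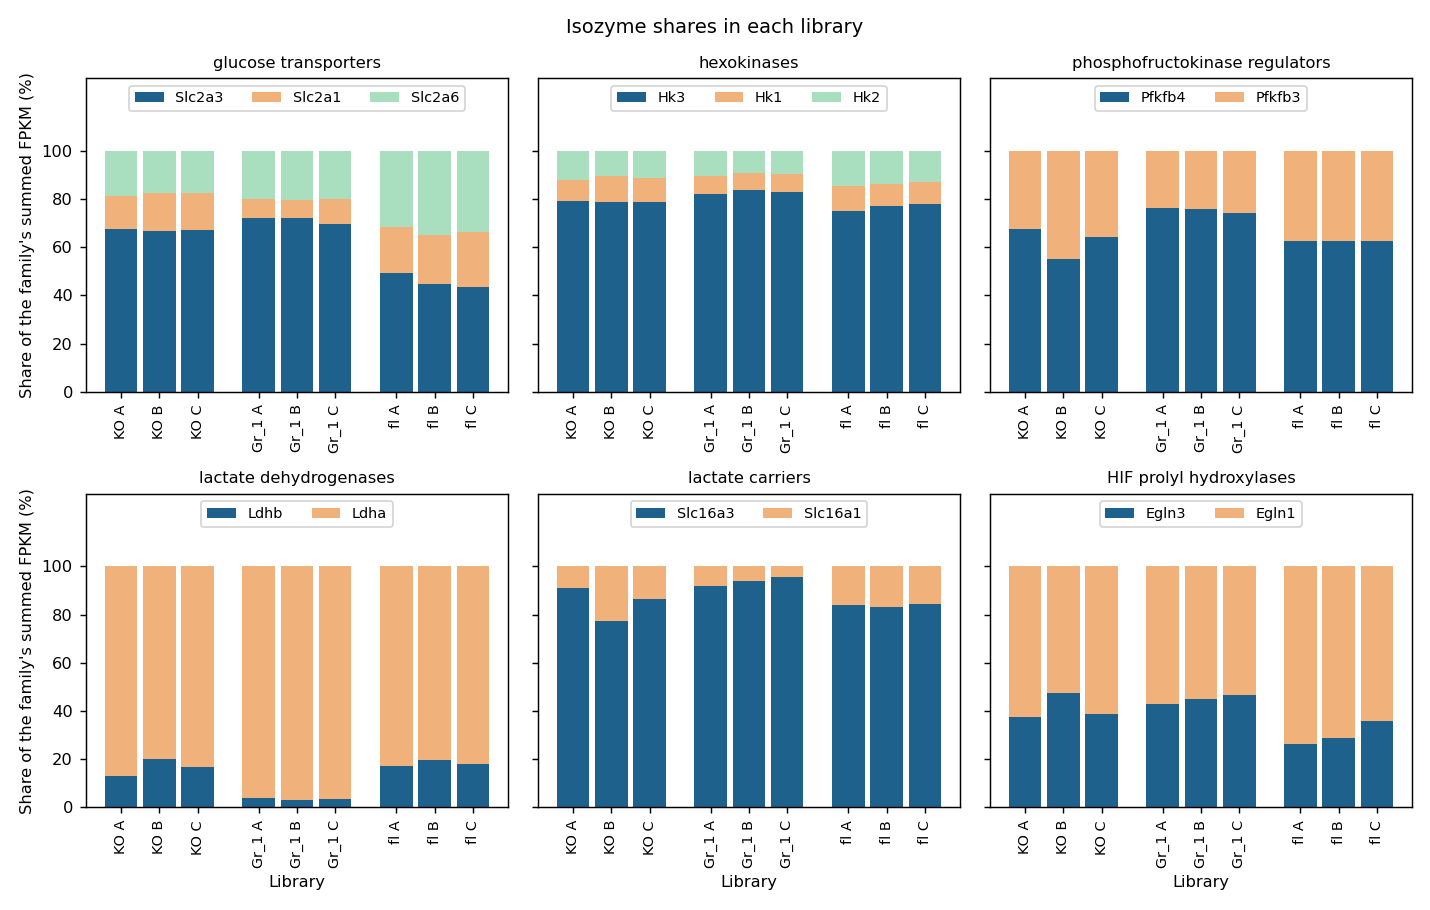
Share of each gene in the summed FPKM of its family, in percent, in each library, for 6 families. Slc2a3 fills 67.2% of the glucose transporter bars on average in KO, 71.3% in Gr_1 and 45.9% in fl, and Ldhb fills 16.6% of the lactate dehydrogenase bars in KO, 3.47% in Gr_1 and 18.3% in fl.

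The hexokinases phosphorylate glucose and so hold it in the cell. Hk3, the isozyme typical of myeloid cells, was the main one, with 216, 184 and 197 FPKM in KO, 289, 287 and 269 FPKM in Gr_1, and 164, 162 and 199 FPKM in fl. Every Gr_1 library was above every library of KO and fl, while KO and fl overlapped. The log2 change was 0.69 ± 0.10 for Gr_1 against fl (adjusted p = 0.00034) and 0.19 ± 0.10 for KO against fl (adjusted p = 0.264). Hk3 made up 79.0% of hexokinase FPKM in KO, 82.9% in Gr_1 and 76.7% in fl. Hk1, the housekeeping isozyme, averaged 24.5 ± 0.613 FPKM in KO, 25.1 ± 1.52 FPKM in Gr_1 and 21.5 ± 1.84 FPKM in fl. Its call for Gr_1 (log2 change 0.21, adjusted p = 0.0347) turned to -0.18 with equal sums and was lost in 5 of 9 fits that left out a library, down to 0.15 without fl B. Hk2, the inducible isozyme, averaged 28.4 ± 4.28 FPKM in KO, 33.2 ± 2.61 FPKM in Gr_1 and 31.4 ± 2.03 FPKM in fl and was called in no comparison on the deposited scale, though lower in Gr_1 than in fl with equal sums (-0.32).

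Of the enzymes of upper glycolysis, Gpi1, which turns glucose 6-phosphate into fructose 6-phosphate, had 223, 235 and 229 FPKM in KO, 256, 255 and 247 FPKM in Gr_1, and 209, 202 and 213 FPKM in fl. The 3 groups did not overlap, and the spread within each was under 7 FPKM (SD). The rise in Gr_1 over fl was small (log2 change 0.28 ± 0.06, adjusted p = 0.00346) and turned to -0.13 with equal sums, while the change in KO was not called (0.14 ± 0.06, adjusted p = 0.186). The phosphofructokinases Pfkl, Pfkm and Pfkp, which make the committed step, were low, at 7.10, 2.001 and 6.01 FPKM in KO, 7.89, 1.43 and 5.73 FPKM in Gr_1, and 7.91, 2.02 and 6.52 FPKM in fl, and none was called in any comparison on the deposited scale. Pfkm in Gr_1 came near the threshold (log2 change -0.31 ± 0.12, adjusted p = 0.0508) and was called lower on each of the 3 other scalings. Pfkp was called lower in Gr_1 than in fl with equal sums (-0.51) and with equal sums without the 10 most abundant genes (-0.27). Pfkl was called lower with equal sums alone (-0.37).

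Aldoa, the aldolase of most tissues, averaged 269 ± 19.0 FPKM in KO, 332 ± 8.99 FPKM in Gr_1 and 262 ± 25.4 FPKM in fl. Its rise in Gr_1 over fl (log2 change 0.35 ± 0.09, adjusted p = 0.00818) turned to -0.07 with equal sums. Aldoc, the brain aldolase, lay at 0.324 to 0.550 FPKM over all libraries, on 19 to 39 fragments, and was the 1 gene of the 33 that was not tested. Tpi1, which interconverts the triose phosphates, went the other way from its neighbours. It had 88.9, 102 and 92.5 FPKM in KO, 76.1, 73.2 and 66.6 FPKM in Gr_1, and 93.9, 97.9 and 111 FPKM in fl. Every Gr_1 library was below every other library, with a log2 change of -0.48 ± 0.09 against fl (adjusted p = 0.00143) and 0.53 below the median gene with equal sums. In KO it was above Gr_1 (0.39 ± 0.09, adjusted p = 0.00546; 0.40 without KO C, adjusted p = 0.018) and not called against fl.

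The phosphofructokinase regulators Pfkfb3 and Pfkfb4 make and break fructose 2,6-bisphosphate, the activator of phosphofructokinase. Pfkfb4 had 39.7, 26.1 and 33.8 FPKM in KO, 77.5, 76.1 and 71.9 FPKM in Gr_1, and 30.4, 29.0 and 34.6 FPKM in fl. Gr_1 was above both other groups, which overlapped, with a log2 change of 1.24 ± 0.14 for Gr_1 against fl (adjusted p = 7.78e-05) and 0.07 ± 0.14 for KO against fl (adjusted p = 0.797). Pfkfb3 averaged 19.7 ± 1.27 FPKM in KO, 24.4 ± 0.419 FPKM in Gr_1 and 18.6 ± 1.69 FPKM in fl, and its rise in Gr_1 over fl (0.38 ± 0.08, adjusted p = 0.00246) turned to -0.02 with equal sums. The share of Pfkfb4 was 67.5%, 55.2% and 64.2% in KO, 76.4%, 75.7% and 74.4% in Gr_1, and 62.7%, 62.6% and 62.8% in fl. The fl libraries differed by under 1 point, while KO B stood below and KO A above them.

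In lower glycolysis, Pkm, the pyruvate kinase of most tissues, was the most abundant of the 33 genes, with 409, 379 and 389 FPKM in KO, 567, 560.0 and 506 FPKM in Gr_1, and 391, 383 and 434 FPKM in fl. Gr_1 was above both other groups (log2 change 0.44 ± 0.08 against fl, adjusted p = 0.0017), and KO and fl overlapped (-0.03 ± 0.08, adjusted p = 0.83). With equal sums the Gr_1 change fell to 0.02, which was 0.38 above the median gene. Pgk1, an X-linked kinase that yields ATP, averaged 186 ± 1.84 FPKM in KO, 237 ± 10.9 FPKM in Gr_1 and 174 ± 7.09 FPKM in fl (0.44 ± 0.06 for Gr_1 against fl, adjusted p = 0.000369, and 0.03 with equal sums). The mutase Pgam1 and the enolase Eno1 were called in no comparison on the deposited scale, with changes of 0.04 ± 0.07 and 0.01 ± 0.08 in Gr_1 against fl, and both were called lower in Gr_1 with equal sums (-0.37 and -0.40). Of the 5 genes of this step, 3 were called higher in Gr_1 than in fl (Pgk1, Pkm and Gapdh, given below), where 30% of all genes were. With equal sums these 3 were not called. In KO against fl, where 11% of all genes were called, 0 of the 5 were called by limma (0 at an unadjusted p under 0.05, and 0 by voom on the recovered fragments).

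Gapdh, which oxidises glyceraldehyde 3-phosphate, behaved unlike the rest of the step. It had 14.7, 7.22 and 6.81 FPKM in KO, 10.8, 22.5 and 48.3 FPKM in Gr_1, and 6.59, 13.5 and 6.88 FPKM in fl. These levels were far under those of the other enzymes of the step, and all 3 groups overlapped. Its coefficient of variation was 46.4% in KO, 70.5% in Gr_1 and 43.5% in fl, the largest of the 33 genes in each group, against medians of 7.09%, 6.66% and 6.999%. GENCODE M21 holds 160 other genes with at least 90% identity over at least 50% of its coding sequence, 153 of them pseudogenes, and their summed level was 41.6, 46.3 and 43.2 FPKM in KO, 74.2, 71.4 and 68.8 FPKM in Gr_1, and 45.6, 40.5 and 29.7 FPKM in fl. The sources used here do not say how the authors' counting treated fragments that match several copies, so the Gapdh values are uncertain. The call for Gr_1 against fl (1.33 ± 0.50, adjusted p = 0.0458) was lost in 6 of 9 fits that left out a library, among them that without Gr_1 C (0.80, adjusted p = 0.148), and on all 3 other scalings. Fewer copies were found for Ldha (10), Aldoa and Eno1 (6 each), Pkm (5), Pgam1 (3), Pgk1 (2) and Gpi1, Tpi1 and Ldhb (1 each), and the copies of Eno1 summed to 18.0 to 29.4 FPKM. Exons of Pkm, Gpi1, Pfkm, Car9, Ndrg1 and Hif1a share 8.11% to 15.3% of their bases with other annotated genes. These lie on the same strand for Pkm and on the opposite strand for Gpi1, Car9 and Ndrg1. Pfkm and Hif1a overlap genes on both strands. The sources used here do not say whether counting used strand, so fragments in those bases cannot be told apart.

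**Figure D3:**
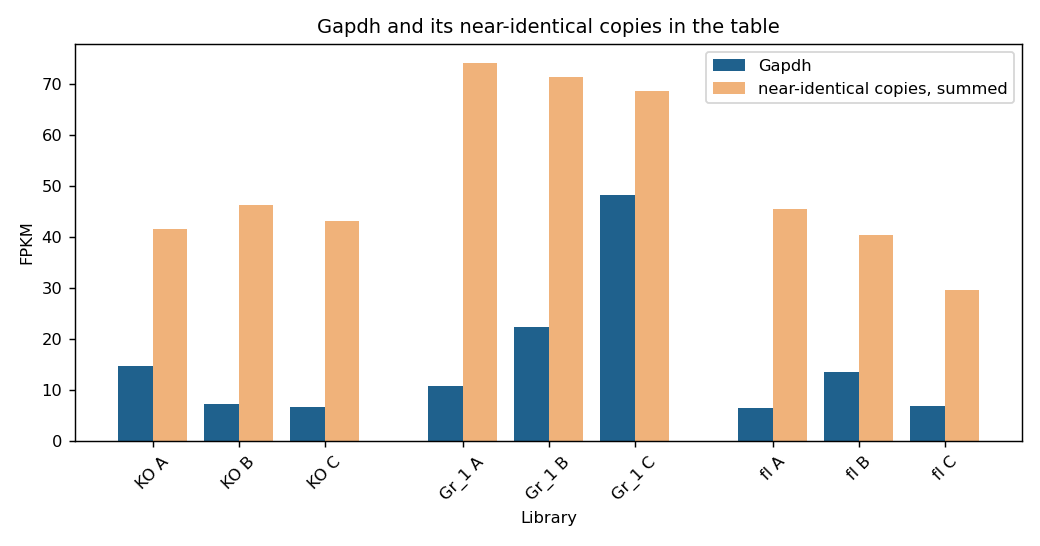
Level of Gapdh and the summed level of its near-identical copies in each library, in FPKM. Bars are single libraries. Gapdh differs between libraries of the same group, from 10.8 to 48.3 FPKM in Gr_1, while the copies sum to 68.8 to 74.2 FPKM there, and the copies stand above Gapdh in every library.

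At the lactate end of the pathway, Ldha encodes the lactate dehydrogenase subunit that favours lactate formation, and Ldhb the subunit that favours its oxidation. Ldha had 147, 146 and 142 FPKM in KO, 227, 224 and 216 FPKM in Gr_1, and 126, 126 and 135 FPKM in fl. The 3 groups did not overlap. The log2 change for Gr_1 against fl was 0.78 ± 0.06 (adjusted p = 1.20e-05), and it was called on every scaling, at 0.37 with equal sums. For KO against fl the change was 0.16 ± 0.06 (adjusted p = 0.127), not called on the deposited scale and called on the 3 other scalings (0.19, 0.24 and 0.30). Ldhb, also minus-strand on chromosome 6, at 142490249 to 142507957, had 22.2, 36.5 and 28.2 FPKM in KO, 8.74, 7.40 and 7.84 FPKM in Gr_1, and 26.5, 30.8 and 29.7 FPKM in fl. All Gr_1 libraries were below 9 FPKM and all others above 22 FPKM, a log2 change of -1.74 ± 0.16 against fl (adjusted p = 2.47e-05), the largest fall among the 32 genes. In KO Ldhb was 3.62 times its level in Gr_1 (1.71 ± 0.16, adjusted p = 5.84e-05; 1.72 without KO C) and not called against fl (-0.03 ± 0.16, adjusted p = 0.937). Ldhb made up 13.1%, 20.03% and 16.6% of the pair in KO, 3.71%, 3.20% and 3.50% in Gr_1, and 17.3%, 19.7% and 18.0% in fl, so the balance of the pair set Gr_1 apart and left KO and fl overlapping.

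Slc16a3 encodes MCT4, the carrier of cells that export much lactate, and is a plus-strand gene of chromosome 11, at 120948480 to 120960868. It had 51.7, 29.4 and 41.8 FPKM in KO, 132, 148 and 160.2 FPKM in Gr_1, and 29.3, 28.9 and 34.4 FPKM in fl. Gr_1 was above both other groups, at 4.75 times the mean of fl (log2 change 2.21 ± 0.18, adjusted p = 1.57e-05). KO A and KO C were above all fl libraries and KO B was among them, and the change was not called (0.37 ± 0.18, adjusted p = 0.24; 0.33 without KO C). Slc16a1 encodes MCT1, the carrier that most tissues use in either direction. It averaged 6.66 ± 1.80 FPKM in KO, 9.65 ± 1.92 FPKM in Gr_1 and 5.94 ± 0.401 FPKM in fl, and its rise in Gr_1 over fl (0.60 ± 0.18, adjusted p = 0.0162) missed the threshold without Gr_1 A (0.48, adjusted p = 0.0594) and with equal sums (0.24). Within KO the carriers ran in opposite order, Slc16a3 highest in KO A and lowest in KO B, Slc16a1 lowest in KO A and highest in KO B. The share of Slc16a3 was accordingly 91.2%, 77.4% and 86.6% in KO, against 92.0%, 93.8% and 95.4% in Gr_1 and 83.9%, 83.2% and 84.4% in fl.

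The pyruvate dehydrogenase kinases switch off pyruvate dehydrogenase and so keep pyruvate out of the mitochondria. Pdk3, an X-linked isozyme, averaged 18.4 ± 1.30 FPKM in KO, 19.2 ± 1.54 FPKM in Gr_1 and 16.3 ± 1.09 FPKM in fl. Its call for Gr_1 against fl (0.23 ± 0.08, adjusted p = 0.0395) turned to -0.16 with equal sums and was lost in 5 of 9 fits that left out a library, down to 0.17 without Gr_1 A. Pdk1, a textbook target of Hif1a, was low in all groups, at 1.59, 3.09 and 2.22 FPKM in KO, 1.45, 1.88 and 1.62 FPKM in Gr_1, and 1.69, 1.60 and 1.84 FPKM in fl. It was not called in any comparison on the deposited scale. It was called higher in KO than in Gr_1 with equal sums (0.58) and with equal sums without the 10 most abundant genes (0.43). KO B was the highest of the 9 libraries and KO A among the lowest.

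Among the oxygen sensors, Hif1a mRNA, which need not follow the amount of the protein, was at 10.1, 10.7 and 10.5 FPKM in KO, 12.7, 13.4 and 15.5 FPKM in Gr_1, and 10.4, 10.6 and 6.80 FPKM in fl. Every Gr_1 library was above every other library, and fl C stood below the rest. The change for Gr_1 against fl was 0.56 ± 0.15 (adjusted p = 0.00938), called in each of 9 fits that left out a library, though 0.37 without fl C, and 0.17 and not called with equal sums. For KO against fl it was 0.18 ± 0.15 (adjusted p = 0.479). Egln1, the main oxygen sensor of the family, averaged 12.7 ± 0.943 FPKM in KO, 12.0 ± 1.04 FPKM in Gr_1 and 14.5 ± 0.649 FPKM in fl and was called lower in Gr_1 than in fl (-0.25 ± 0.08, adjusted p = 0.0224), a call lost without Gr_1 C (-0.19, adjusted p = 0.0779), fl B or fl C. Egln3, the hydroxylase that hypoxia induces, had 8.17, 10.6 and 8.08 FPKM in KO, 9.26, 10.5 and 9.57 FPKM in Gr_1, and 5.02, 5.83 and 8.45 FPKM in fl. KO overlapped with fl through fl C alone (0.44 ± 0.16, adjusted p = 0.13), and the rise in Gr_1 over fl (0.56 ± 0.16, adjusted p = 0.0158) was lost without Gr_1 B, fl A or fl B, at 0.42 without fl A, and with equal sums (0.20). The share of Egln3 among the 2 hydroxylases was 37.4%, 47.4% and 39.0% in KO, 42.9%, 44.9% and 46.8% in Gr_1, and 26.5%, 28.8% and 35.7% in fl, higher in every KO and Gr_1 library than in any fl library.

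The 4 hypoxia target genes did not move together on the deposited scale. With equal sums all 4 were called lower in Gr_1 than in fl, where 53.9% of all genes were. The changes were then -0.98 for Car9, -0.99 for P4ha1, -0.44 for Vegfa and -0.40 for Ndrg1, and the median gene lay at -0.36. Car9, a carbonic anhydrase of the cell surface, had 3.06, 3.33 and 3.91 FPKM in KO, 1.14, 1.12 and 0.840 FPKM in Gr_1, and 2.39, 2.28 and 2.58 FPKM in fl. The 3 groups did not overlap. The fall in Gr_1 against fl was -0.75 ± 0.10 (adjusted p = 0.000241), called on each scaling and in each of 9 fits that left out a library. The rise in KO over fl was small (0.37 ± 0.10, adjusted p = 0.0484). It was called in 2 of 9 fits that left out a library, missed the threshold without KO C (0.30, adjusted p = 0.183) and with quantile normalization (adjusted p = 0.0831), and rests on 140 to 196 fragments per library in KO and 109 to 121 in fl. Ndrg1, a stress-induced gene of the cytosol, had 9.47, 9.36 and 9.36 FPKM in KO, 11.6, 11.9 and 12.9 FPKM in Gr_1, and 13.2, 11.5 and 12.3 FPKM in fl. The KO libraries, within 1 FPKM of each other, were below all others (-0.36 ± 0.07 against fl, adjusted p = 0.0115), while Gr_1 and fl overlapped (-0.02 ± 0.07, adjusted p = 0.796). Without KO C the change in KO was -0.36 with an adjusted p of 0.0559. With equal sums the change of Ndrg1 for KO against Gr_1 turned to 0.06 and was not called.

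P4ha1, a collagen prolyl hydroxylase, had 3.89, 4.30 and 4.02 FPKM in KO, 2.82, 2.12 and 2.53 FPKM in Gr_1, and 4.64, 4.54 and 4.601 FPKM in fl. The groups did not overlap, and the fall in Gr_1 against fl (-0.69 ± 0.08, adjusted p = 0.000151) was called on each scaling, while the change in KO was not (-0.14 ± 0.08, adjusted p = 0.329). Vegfa, the growth factor of blood vessels, lay between 22.1 and 26.1 FPKM in all 9 libraries and was not called in any comparison on the deposited scale. With equal sums it was called lower in Gr_1 than in fl (-0.44). On each of the 3 other scalings Vegfa was called higher in KO than in Gr_1 (0.54, 0.32 and 0.28). Of the 4 targets, 2 were called lower in Gr_1 than in fl on the deposited scale, where 31.4% of all genes were. These 2 kept the call on every scaling, as did the 7 transport and enzyme genes that were higher.

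**Figure D4:**
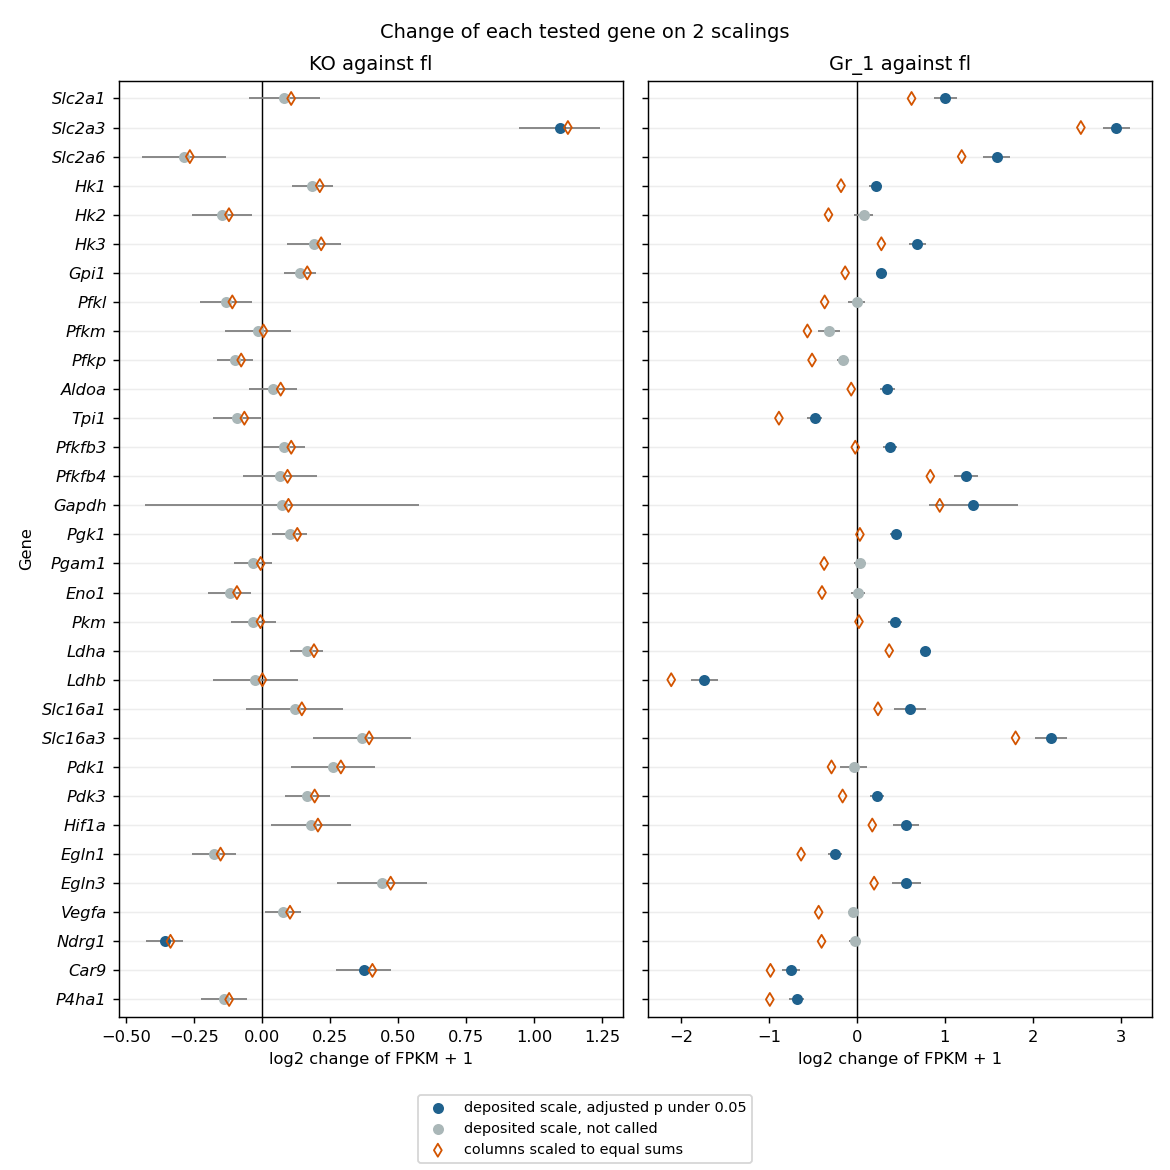
Log2 change of FPKM + 1 for each of the 32 genes tested, for KO against fl on the left and Gr_1 against fl on the right, on the deposited scale (filled points, bars are ± 1 SE from limma) and with columns scaled to equal sums (open diamonds). In KO the 2 scalings nearly coincide and Slc2a3 stands alone at 1.09, and in Gr_1 the diamonds lie to the left of the points, so that 8 genes change sign (Hk1, Hk2, Gpi1, Aldoa, Pfkfb3, Pgam1, Eno1 and Pdk3).

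Counted over libraries rather than tests, the KO and fl values did not overlap for 10 of the 32 genes, where 31.4% of all genes did not overlap. Gr_1 and fl did not overlap for 24 of 32, where 67.5% of all genes did not, and KO and Gr_1 for 20 of 32, where 68.2% did not. These counts were close to the shares over all genes. Among the 13 genes called lower in KO than in Gr_1, 6 held on every scaling and in every fit that left out a library: Slc2a1, Slc2a3, Slc2a6, Pfkfb4, Ldha and Slc16a3. The other 7 were Hk3, Aldoa, Pfkfb3, Pgk1, Pkm, Slc16a1 and Ndrg1. Each of them lost its call on at least 1 scaling, Aldoa also without Gr_1 A, Gr_1 B, KO B or KO C, and Slc16a1 in 7 of 9 fits that left out a library (-0.32 without KO A). Tpi1, Ldhb, Car9 and P4ha1, higher in KO than in Gr_1, all held. Without KO C, 15 genes were called between KO and Gr_1 (4 higher and 11 lower in KO), and 1 between KO and fl, Slc2a3.

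Genes of the same pathways outside the 33 were counted in lists that were not picked by direction, though earlier results of these data were known. Their counts are to be read against the shares over all genes, which were 4.48% higher and 6.52% lower in KO than in fl. In Gr_1 against fl they were 30% higher and 31.4% lower as deposited, and 16.1% and 53.9% with equal sums. Of 26 other glycolysis genes 16 were tested, with 1 higher and 2 lower in KO than in fl. Between Gr_1 and fl 3 were higher and 8 lower, which became 2 and 12 with equal sums. Adpgk, which phosphorylates glucose with ADP, had 146, 93.6 and 119 FPKM in KO, 256, 265 and 249.5 FPKM in Gr_1, and 80.8, 74.1 and 79.7 FPKM in fl. The 3 groups did not overlap (0.58 ± 0.14 for KO against fl, adjusted p = 0.029; 0.57 without KO C, adjusted p = 0.102; and 1.70 ± 0.14 for Gr_1 against fl, adjusted p = 1.45e-05). Fbp1, which runs the phosphofructokinase step backwards, averaged 8.05 ± 2.39 FPKM in KO, 1.55 ± 0.506 FPKM in Gr_1 and 6.95 ± 0.858 FPKM in fl (-1.66 ± 0.21 for Gr_1 against fl, adjusted p = 0.000153). Emb, an accessory protein of lactate carriers, averaged 22.7 ± 2.15 FPKM in KO, 39.8 ± 1.84 FPKM in Gr_1 and 32.2 ± 4.16 FPKM in fl, and was lower in KO than in fl (-0.49 ± 0.10, adjusted p = 0.0203), a call lost without KO C (-0.50, adjusted p = 0.0668). Of 12 genes of pyruvate entry into the mitochondria 11 were tested, 0 were called in KO against fl by limma (1 at an unadjusted p under 0.05, and 0 by voom), and 1 was higher (Mpc2, a subunit of the pyruvate carrier) and 6 lower in Gr_1 than in fl.

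Of 9 other genes of the Hif1a pathway 7 were tested. In KO against fl 0 were called by limma (1 at an unadjusted p under 0.05, and 0 by voom), and in Gr_1 against fl 3 were higher and 0 lower, which became 0 and 4 with equal sums. Arnt, the partner of Hif1a, averaged 7.68 ± 0.559 FPKM in KO, 10.8 ± 0.372 FPKM in Gr_1 and 8.51 ± 0.198 FPKM in fl, with a log2 change for Gr_1 against fl of 0.31 on the deposited scale and -0.06 with equal sums. Of 28 other hypoxia targets 16 were tested. In KO against fl 0 were called by limma (3 at an unadjusted p under 0.05, and 1 by voom), and in Gr_1 against fl 8 were higher and 3 lower, which became 2 and 6 with equal sums, a move that the shares over all genes made too. Mxi1, an antagonist of Myc, was higher in Gr_1 on both scales (0.62 and 0.23), and Selenbp1, a selenium-binding protein, was lower on both (-1.18 and -1.54).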

How the data were processed

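RNA of 9 libraries was measured, and the table deposited by the authors gives FPKM per gene, per the file headers, in which the 9 columns have unequal sums. The submitters' processing notes name featureCounts 1.5.0-p3, DESeq2 1.16.1 and the builds mm10 and GRCm38, with no role for each, and no aligner is named in the sources used here. Groups came from the sample labels. Gene coordinates and exon lengths came from GENCODE M21 (54495 of 54532 rows matched). FPKM times exon length gave fragments, whole within 0.02 for 97.2% to 97.5% of values under 1000 fragments, 18.3 to 21.5 M per library. Floors cover counting error only.

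The 12289 genes that reached 1 FPKM in 3 or more libraries were tested as log2(FPKM + 1) with limma 3.58.1 (R 4.3.3, mean-variance trend, 1 term per group, all 9 libraries, 6 residual degrees of freedom, two-sided), and called at an adjusted p under 0.05. Such log2 changes understate those of low genes. The limma step was first tested on simulated data. Shares within enzyme families were compared by exact permutation in Python 3.11.15 with scipy 1.17.1. Alternatives were equal sums, equal sums without the 10 most abundant genes, quantile normalization, a pseudocount of 0.1, no filter, a filter of 5 FPKM, a replicate block, the 2 groups compared alone, voom on recovered fragments, and leaving out each library.

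All 33 genes are named whatever their values. From each list of related genes, up to 2 called genes per direction and comparison with the smallest adjusted p could be named. The genes and lists were chosen with earlier results of these data known, so none of the patterns is independent support for another.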

Additional observations from a re-analysis of the deposited data

How the results depend on the processing

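The direction of several changes depended on the scaling of the columns. For Gr_1 against fl, 8 of the 32 log2 changes took the other sign with equal sums, 3 with equal sums without the 10 most abundant genes, 3 with quantile normalization and 1 with voom. The deposited scale called 7550 genes between Gr_1 and fl (3686 higher and 3864 lower), equal sums 8593 (1974 and 6619), and equal sums without the 10 most abundant genes 7725 (2955 and 4770). Between KO and Gr_1 the higher and lower counts were 3287 and 3556 as deposited, 6663 and 1644 with equal sums, 5000 and 2452 without the 10 most abundant genes, and 3904 and 3139 with quantile normalization. Between KO and fl they were 551 and 801 as deposited and 767 and 585 without the 10 most abundant genes. A fit of the KO and fl libraries alone called 797 genes between them, against 1352 with all 9 libraries. Of the 32 genes tested, 6 were called between KO and fl without the 10 most abundant genes (Slc2a3, Hk1, Gpi1, Ldha and Car9 higher, Ndrg1 lower) and 6 with quantile normalization (Slc2a3, Hk3, Gpi1, Pgk1 and Ldha higher, Ndrg1 lower), against 3 on the deposited scale. The cause was not tested. With columns scaled to equal sums the log2 change took the other sign for KO against fl Pfkm 0.0039, and for Gr_1 against fl Hk1 -0.18, Hk2 -0.32, Gpi1 -0.13, Aldoa -0.065, Pfkfb3 -0.019, Pgam1 -0.37, Eno1 -0.40, Pdk3 -0.16, and for KO against Gr_1 Hk1 0.39, Hk2 0.20, Gpi1 0.30, Pfkl 0.26, Aldoa 0.13, Pfkfb3 0.12, Pgk1 0.094, Pgam1 0.37, Eno1 0.30, Pdk3 0.36, Hif1a 0.030, Egln3 0.28, Ndrg1 0.064. With equal sums over all genes but the 10 most abundant the log2 change took the other sign for KO against fl Pfkm 0.039, Pgam1 0.047, Pkm 0.046, Ldhb 0.052, and for Gr_1 against fl Hk2 -0.053, Pgam1 -0.10, Eno1 -0.12, and for KO against Gr_1 Hk1 0.18, Gpi1 0.074, Pfkl 0.058, Pgam1 0.14, Eno1 0.079, Pdk3 0.14, Egln3 0.073. With quantile normalization the log2 change took the other sign for KO against fl Tpi1 0.029, Pgam1 0.11, Eno1 0.032, Pkm 0.082, Ldhb 0.036, and for Gr_1 against fl Hk2 -0.051, Pgam1 -0.038, Eno1 -0.051, and for KO against Gr_1 Hk1 0.14, Gpi1 0.082, Pgam1 0.15, Eno1 0.084, Pdk3 0.090. With voom on the recovered fragments the log2 change took the other sign for Gr_1 against fl Eno1 -0.0079, and for KO against Gr_1 Hk1 0.0031. Leaving out each library in turn gave log2 changes of both signs for KO against fl Slc2a1 (-0.012 to 0.20), Pfkm (-0.14 to 0.046), Aldoa (-0.012 to 0.12), Pfkfb4 (-0.069 to 0.22), Gapdh (-0.25 to 0.37), Pgam1 (-0.070 to 0.012), Pkm (-0.070 to 0.021), Ldhb (-0.20 to 0.14), Slc16a1 (-0.055 to 0.28), Hif1a (-0.0075 to 0.28), for Gr_1 against fl Pfkl (-0.079 to 0.072), Pgam1 (-8.4e-05 to 0.083), Eno1 (-0.017 to 0.072), Pdk1 (-0.10 to 0.018), Vegfa (-0.082 to 0.0010), Ndrg1 (-0.067 to 0.025), for KO against Gr_1 Hk1 (-0.065 to 0.015), Pdk3 (-0.10 to 0.00013). Leaving out each library in turn, so that 1 group kept 2 libraries, gave 573 to 1261 genes called between KO and fl, with 573 without KO C, 818 without fl A and 730 without fl B, and 1 to 4 of the 32 genes, with 1 without KO C.

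Libraries with the same letter in different groups showed little sign of deviating together. Their correlations ranged from -0.06 to 0.14 and 1 of 9 was over 0.1 (KO A with fl A). With 3 libraries in each group such correlations cannot exclude a pairing, on which the labels are silent. With the letter as a replicate block, 1037 genes were called between KO and fl (415 higher and 622 lower), of which 2 were among the 32. The other settings, a pseudocount of 0.1, no filter on low values and a filter of 5 FPKM, reversed none of the changes of the 32 genes that they tested. Precision is limited by 3 libraries in each group, and for Aldoc (19 to 39 fragments per library) and Car9 (31 to 196) also by depth. The counts of the lists of related and marker genes without KO C were added after the data were seen.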

Other observations

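Glycogen is the sugar store of neutrophils, and its genes were not among the 33. All 14 genes of a glycogen list were tested, with 4 higher in KO than in fl and 9 higher and 3 lower in Gr_1 than in fl (limma, adjusted p under 0.05 over all genes). Over all genes 4.48% were called higher in KO than in fl, and 30% higher and 31.4% lower in Gr_1 than in fl. Without KO C, 1 of the 14 was called between KO and fl, Ppp1r3d. The levels of the 14 summed to 306 to 347 FPKM in KO, 510 to 521 FPKM in Gr_1 and 277 to 287 FPKM in fl. With equal sums 4 were higher in KO than in fl, and in Gr_1 6 were higher and 5 lower, where 16.1% of all genes were higher and 53.9% lower. Ppp1r3b, which brings protein phosphatase 1 to glycogen, had 5.70, 3.23 and 4.38 FPKM in KO, 19.9, 22.3 and 31.6 FPKM in Gr_1, and 1.45, 1.495 and 2.01 FPKM in fl. The 3 groups did not overlap, with log2 changes of 1.02 ± 0.20 (SE) for KO against fl (adjusted p = 0.0141; 1.01 without KO C, adjusted p = 0.0564) and 3.25 ± 0.20 for Gr_1 against fl (adjusted p = 4.45e-06). Ppp1r3d, another glycogen-targeting subunit of the phosphatase, had 10.1, 6.07 and 8.16 FPKM in KO, 31.6, 31.5 and 26.5 FPKM in Gr_1, and 4.38, 3.82 and 4.07 FPKM in fl. Both genes stood in the order Gr_1, KO, fl. Pygl, the liver-type glycogen phosphorylase that cleaves the store, averaged 114 ± 13.4 FPKM in KO, 244 ± 9.67 FPKM in Gr_1 and 89.5 ± 3.93 FPKM in fl (SD, n = 3 each). Phka2, a regulatory subunit of phosphorylase kinase, averaged 14.7 ± 1.05 FPKM in KO, 8.22 ± 0.416 FPKM in Gr_1 and 14.9 ± 1.06 FPKM in fl, and was lower in Gr_1 than in fl (-0.79 ± 0.08, adjusted p = 3.85e-05; -1.16 with equal sums). The late neutrophil markers were higher in the same groups, and their part in these values was not tested.

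The pentose phosphate pathway branches from glucose 6-phosphate and supplies NADPH, which the oxidative burst of neutrophils uses. Of its 8 genes, all tested, 0 were called between KO and fl by limma (0 at an unadjusted p under 0.05, and 0 by voom), and 4 were higher and 1 lower in Gr_1 than in fl, which became 3 and 4 with equal sums, where 16.1% of all genes were higher and 53.9% lower. Pgd, which makes NADPH, averaged 138 ± 6.89 FPKM in KO, 227 ± 16.1 FPKM in Gr_1 and 141 ± 19.5 FPKM in fl, with a log2 change for Gr_1 against fl of 0.68 ± 0.10 (adjusted p = 0.00049; 0.27 with equal sums). Taldo1, the transaldolase, averaged 342 ± 42.9 FPKM in KO, 562 ± 32.0 FPKM in Gr_1 and 351 ± 25.5 FPKM in fl. Rpia, which isomerises ribose 5-phosphate, went the other way, at 29.9 ± 3.11 FPKM in KO, 16.5 ± 0.965 FPKM in Gr_1 and 32.9 ± 5.96 FPKM in fl (-0.94 ± 0.12 for Gr_1 against fl, adjusted p = 0.000219; -1.33 with equal sums).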
